A study of Mus musculus with 6 samples.

Results

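The transfer RNA (tRNA) genes for lysine, valine, aspartate and histidine were followed in extracellular vesicles (EVs) of 2 kinds of mouse neural cell. Members were the rows of the raw count table that carry the type tRNA and one of these amino acids in their name, which gave 79 of the 432 tRNA rows and of the 61949 rows in all. They fall under 9 anticodons: AspGTC with 16 rows, HisGTG with 10, HisATG with 1, LysCTT with 19, LysTTT with 11, ValCAC with 11, ValAAC with 7, ValTAC with 3 and ValGAC with 1. Many rows are copies with almost the same count in every library, so copies of an anticodon within 5% of each other (or within 3 counts) in all 6 libraries were taken as a group, and the copy with the largest count stood for it. This left 41 groups, of which 5 were aspartate, 4 histidine, 18 lysine and 14 valine. Copies in a group share reads and were not treated as separate measurements. Of the 79 rows, 17 held under 1000 counts over the 6 libraries together.

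A tRNA carries an amino acid to the ribosome and pairs through its anticodon with a codon in the mRNA. Genomes hold many gene copies for most anticodons, and tRNAs that carry the same amino acid with different anticodons are called isoacceptors. Cells also cut mature tRNAs into fragments, often at the anticodon loop, and both whole tRNAs and fragments are found in EVs. A count per tRNA row does not show which piece of the tRNA was read, nor from which of its identical copies it came.

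The sequences below show what a valine, a histidine and an aspartate tRNA gene look like where a reference holds them. They are genes of the leading or second group of their anticodon, as far as RefSeq promoter sequences (GRCm38.p6) or GENCODE vM21 transcripts (GRCm38) hold them. Capitals mark the anticodon, at positions 34 to 36 from the 5′ end, and the stretch at positions 13 to 17 that is the same in all 3 genes.
chr13.tRNA966-ValCAC, whole gene: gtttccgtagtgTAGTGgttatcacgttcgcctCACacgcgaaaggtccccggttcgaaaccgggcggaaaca
chr3.tRNA295-HisGTG, first 62 bases: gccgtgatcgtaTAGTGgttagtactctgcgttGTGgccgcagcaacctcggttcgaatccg
chr13.tRNA991-AspGTC, first 17 bases: tcctcgttagtaTAGTG
The valine gene lies on the minus strand of chromosome 13 at 23446142 to 23446214, is 73 bases long, and its first 7 bases pair with the 7 bases before its last base, the acceptor stem of the folded tRNA. The histidine gene lies on the plus strand of chromosome 3 at 96452495 to 96452566. The aspartate gene lies on the minus strand of chromosome 13 at 21940319 to 21940390. Over the first 17 bases, 8 positions were identical in the 3 genes. All members were 72 to 74 bases long, so counts can be set side by side between rows without a correction for length. RefSeq lists a tRNA gene with the same ends for 74 of the 79 members. Of the 79, 8 lie within the span of a protein coding gene and 16 within that of a long noncoding RNA.

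Both kinds of vesicle came from primary cultures of CD1 mice, and each was sequenced in 3 libraries. Astrocyte EVs were collected from cortical astrocytes, which the study grew from pups in serum-containing medium after shaking off microglia and oligodendrocytes, so they are an enriched rather than a pure culture. NSC EVs were collected from neural stem cells of the neonatal subventricular zone (SVZ), and no treatment is labelled for either. The study describes the astrocyte EVs as the pellet of serial centrifugation, and its methods give no isolation for the NSC EVs. Nothing in the labels says that the 3 libraries of a group came from separate cultures. The p-values therefore measure the spread between these libraries, which may be technical. The deposited counts summed to between 72359982 and 111851274 per library in astrocyte EVs, and between 44620985 and 50898531 in NSC EVs. A read counted in several rows enters these totals more than once. Scaling factors of the trimmed mean of M-values (TMM) ran from 0.488 in astrocyte EV 1 to 1.43 in NSC EV 2, and the biological coefficient of variation was 0.449. Every astrocyte and NSC marker gene listed had counts in every library. Of 9 astrocyte markers tested, 1, Gfap, was higher in astrocyte EVs by the edgeR test, where 5.54% of all rows tested were higher. Of the 7 NSC markers tested, 0 differed. Without passing, Slc1a3, Slc1a2 and Aldh1l1 had negative log2 fold changes of astrocyte EVs over NSC EVs (-1.15, -0.80 and -0.18). Those of the other astrocyte markers were positive. Summed, the astrocyte markers made up 16.3, 23.4 and 34.1 CPM (counts scaled to library size) without TMM in astrocyte EVs. The sums in NSC EVs were higher, at 35.7, 59.5 and 55.4.

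Some groups of each of the 4 amino acids were higher in astrocyte EVs, 2 of 4 tested for histidine, 1 of 5 for aspartate, 6 of 13 for valine and 2 of 15 for lysine, and no member passed the test in the other direction. Of the 75 rows tested, 26 were higher and 0 lower at an adjusted p under 0.05 (edgeR quasi-likelihood test on all rows), where 5.54% of all 41308 rows tested were higher and 4.24% lower. At an unadjusted p under 0.05 in this test, 54 of the 75 rows passed, beside 29.3% of all rows. With the copies of each group summed, 20 of 37 groups did so. The median log2 fold change of astrocyte EVs over NSC EVs was 1.98 over the 75 rows, against 0.30 over the 335 other tRNA rows tested and -0.04 over all rows. Counted once per group of copies, 11 of 37 groups tested were higher and 0 lower, with a median of 1.32. Copies were grouped within an anticodon only, so near-equal rows of different anticodons count as separate groups here. All 3 astrocyte EV libraries lay above all 3 NSC EV libraries in 36 of the 75 rows, where 17.2% of all rows did so. They lay below them in 4 of the 75, where 6881 of all 41308 rows tested did so. By groups of copies they lay above in 15 of 37 and below in 3. The edgeR calls did not hold with some single libraries left out: without astrocyte EV 1, without astrocyte EV 2 or without NSC EV 3, 0 member rows passed. In those 3 fits 0, 0 and 18 rows of the whole table passed at all, and 36, 35 and 43 member rows had an unadjusted p under 0.05, beside 23.4%, 23.2% and 23.3% of all rows. In these member counts every copy of a group is its own row. Without astrocyte EV 1, the log2 fold changes of the 37 groups moved by -0.91 to 0.04 (median -0.38). They moved by -0.27 to 0.24 (median 0.02) without astrocyte EV 2, and by -0.51 to 0.93 (median 0.10) without NSC EV 3. Without TMM they moved by -0.88 to -0.43 (median -0.74). Without TMM 6 of the 11 groups were still called, and 3 of them when libraries of the same number formed a block (the replicate block). DESeq2 on all 6 libraries called 42 member rows higher and 0 lower, beside 10.2% of all rows higher and 8.93% lower. In bulk vesicle RNA, fewer vesicles that carry a tRNA and less of it per vesicle cannot be told apart.

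**Figure D1:**
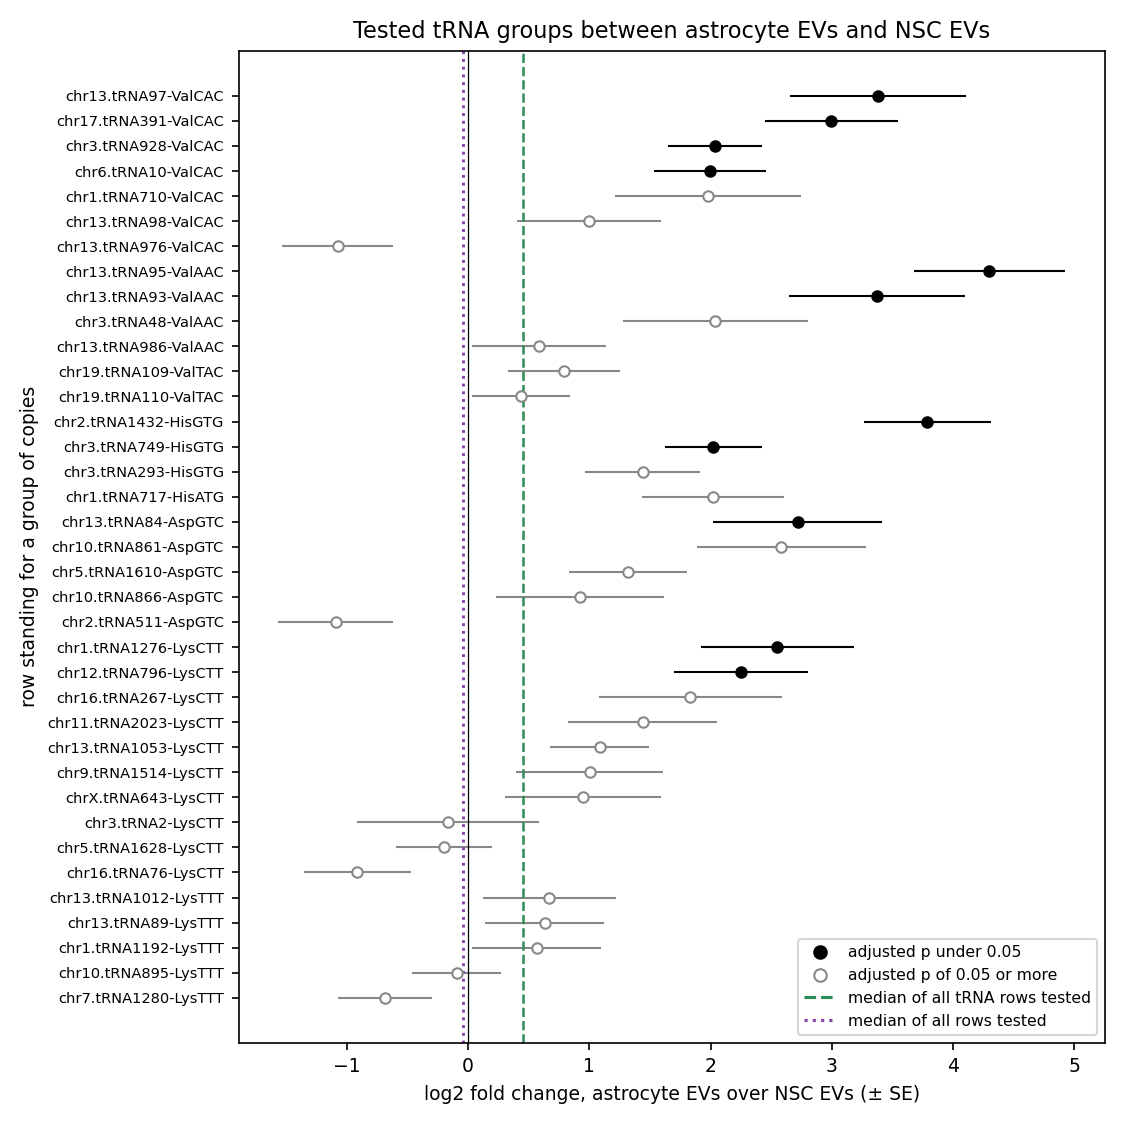
Log2 fold change of astrocyte EVs over NSC EVs (x axis, with its standard error) for the 37 tested groups of copies, each named by the row that stands for it. Filled points passed the edgeR test, and the lines mark the median of all tRNA rows (0.45) and of all rows (-0.04). All 11 filled points lie to the right, and 2 groups, chr2.tRNA511-AspGTC and chr13.tRNA976-ValCAC, lie to the left of -1 without passing.

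Histidine was the one amino acid of the 4 whose rows all separated the EV types. In each of its 11 rows every astrocyte EV library was above every NSC EV library (17.2% of all rows did so). Of these rows 9 passed the test, where 5.54% of all rows were higher. By groups of copies, 4 of 4 did not overlap and 2 passed. The leading HisGTG group has 8 copies, which differed by at most 0.309% in any library, and is represented by chr2.tRNA1432-HisGTG on the minus strand of chromosome 2 at 122375494 to 122375565. The gene printed above, chr3.tRNA295-HisGTG, is another copy of this group. The counts of the representative, scaled by TMM to a common library size (CPM), were 1742, 950 and 1007 in astrocyte EVs 1 to 3 and 64.8, 72.1 and 130 in NSC EVs 1 to 3. The lowest astrocyte EV library was thus several times above the highest NSC EV library. Means of 1233 ± 441 CPM and 89.1 ± 36.0 CPM (SD, n = 3 per EV type) gave a log2 fold change of 3.79 ± 0.52 (SE, with an edgeR adjusted p = 0.0156). When each library was left out in turn, the log2 fold change stayed between 3.44 and 4.16 and the adjusted p by edgeR between 0.0116 and 0.0650. It was over 0.05 without astrocyte EV 1 (0.0541), astrocyte EV 2 (0.0650) or NSC EV 3 (0.0525). With the replicate block its adjusted p by edgeR was 0.0399.

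The smaller histidine groups had smaller fold changes, and 1 of these 3 passed the test. The second group, chr3.tRNA749-HisGTG, a single row, had 38.2, 18.6 and 25.4 CPM in astrocyte EVs and 7.33, 4.51 and 8.38 CPM in NSC EVs, again without overlap. Its log2 fold change came to 2.02 ± 0.40 (SE, with an edgeR adjusted p = 0.0249), and the call was lost without TMM (adjusted p = 0.123) and without astrocyte EV 1, astrocyte EV 2, NSC EV 1 or NSC EV 3 (0.0511 to 0.0818). The only HisATG row, chr1.tRNA717-HisATG, held 41, 54 and 133 counts in astrocyte EVs and 8, 6 and 25 in NSC EVs, or 0.98, 0.86 and 0.94 CPM against 0.14, 0.095 and 0.45 CPM. It did not overlap between groups, and had a log2 fold change of 2.02 (SE 0.58) with an adjusted p of 0.0635 by edgeR. As a share of its leading row, chr3.tRNA749-HisGTG made up 2.19%, 1.96% and 2.53% in astrocyte EVs and 11.3%, 6.26% and 6.42% in NSC EVs. The copies with the higher count were thus more dominant in astrocyte EVs in every library.

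Valine tRNAs were the most abundant members by far. The leading ValCAC group has 5 copies and is represented by chr1.tRNA710-ValCAC on the plus strand of chromosome 1 at 171111443 to 171111515 and includes the valine gene printed above. It had 24152, 11167 and 3735 CPM in astrocyte EVs 1 to 3 and 3082, 2895 and 3930 CPM in NSC EVs. The astrocyte EV libraries spread widely, and astrocyte EV 3 lay within the range of NSC EVs. The means were 13018 ± 10334 CPM and 3302 ± 552 CPM (SD, n = 3 each), and the log2 fold change of 1.98 (SE 0.76) did not pass (adjusted p = 0.130 by edgeR). It was 1.15 without astrocyte EV 1 (adjusted p = 0.288) and 1.11 without TMM (0.0955, both by edgeR). DESeq2 called it at 1.99 (adjusted p = 0.0108), as did edgeR on tRNA rows alone at 1.24 (0.0179).

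The leading ValAAC group could not be separated from this one. Its representative, chr3.tRNA48-ValAAC on chromosome 3 at 30601270 to 30601342, held 994333, 687928 and 522009 counts in astrocyte EVs, where chr1.tRNA710-ValCAC held 1008615, 698449 and 526505. In NSC EVs it held 168128, 169314 and 206237 counts against 175747, 182158 and 216776. The gap between the 2 anticodons was 0.854% to 1.51% of the ValCAC count in astrocyte EVs, against 4.34% to 7.05% in NSC EVs, so the counts of these anticodons cannot be told apart. Its log2 fold change came to 2.04 ± 0.76 (SE, with an edgeR adjusted p = 0.122). The shares of ValAAC and ValCAC within valine, 49.9 ± 0.2% and 49.9 ± 0.3% in astrocyte EVs and 49.1 ± 0.3% and 50.6 ± 0.3% in NSC EVs (SD, n = 3), therefore do not measure the isoacceptors separately.

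Of the valine groups below the leading ones, 6 passed the test. The valine row of largest fold change, chr13.tRNA95-ValAAC on the plus strand of chromosome 13 at 23298781 to 23298853, had 736, 315 and 157 CPM in astrocyte EVs and 18.5, 19.6 and 23.2 CPM in NSC EVs. All 3 astrocyte EV libraries were far above the narrow NSC EV range. The log2 fold change came to 4.30 ± 0.63 (SE, with an edgeR adjusted p = 0.0156), the largest of the 37 groups, and stayed between 3.51 and 4.70 with any 1 library left out, when its adjusted p by edgeR ran from 0.0061 to 0.0675. It was over 0.05 without astrocyte EV 1, astrocyte EV 2 or NSC EV 3.

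A pair of rows nearby on chromosome 13, chr13.tRNA97-ValCAC and chr13.tRNA93-ValAAC, were singled out after their values were seen. They held 125505 and 124813 counts in astrocyte EV 1 and 10054 and 10039 in NSC EV 3, and differed by at most 2.26% of the ValCAC count in any library, so they too cannot be told apart. They had log2 fold changes of 3.38 (SE 0.72) and 3.38 (SE 0.73), with adjusted p of 0.0297 and 0.0302 by edgeR. Both calls were lost with the replicate block (0.0887 and 0.0905) and without any 1 library other than astrocyte EV 3, and without astrocyte EV 1 the log2 fold changes were 2.48 and 2.46. Set against the leading row of its own anticodon, chr13.tRNA97-ValCAC made up 12.4%, 11.3% and 11.8% in astrocyte EVs and 4.85%, 4.11% and 4.64% in NSC EVs. Another row, chr13.tRNA986-ValAAC, also chosen after its values were seen, went the other way on this measure, and made up 5.46%, 5.64% and 10.1% of its leading row in astrocyte EVs and 20.7%, 11.5% and 16.2% in NSC EVs. In these ratios, which were not tested, neither row overlapped between the EV types. The ratio of chr13.tRNA98-ValCAC did overlap, at 6.25%, 6.76% and 10.2% in astrocyte EVs and 17.9%, 8.41% and 13.5% in NSC EVs. In CPM chr13.tRNA986-ValAAC overlapped, with a log2 fold change of 0.59 ± 0.56 (SE, with an edgeR adjusted p = 0.524). Its sign turned without TMM (-0.16), among tRNA rows alone (-0.0033) and without astrocyte EV 1 (-0.057).

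**Figure D2:**
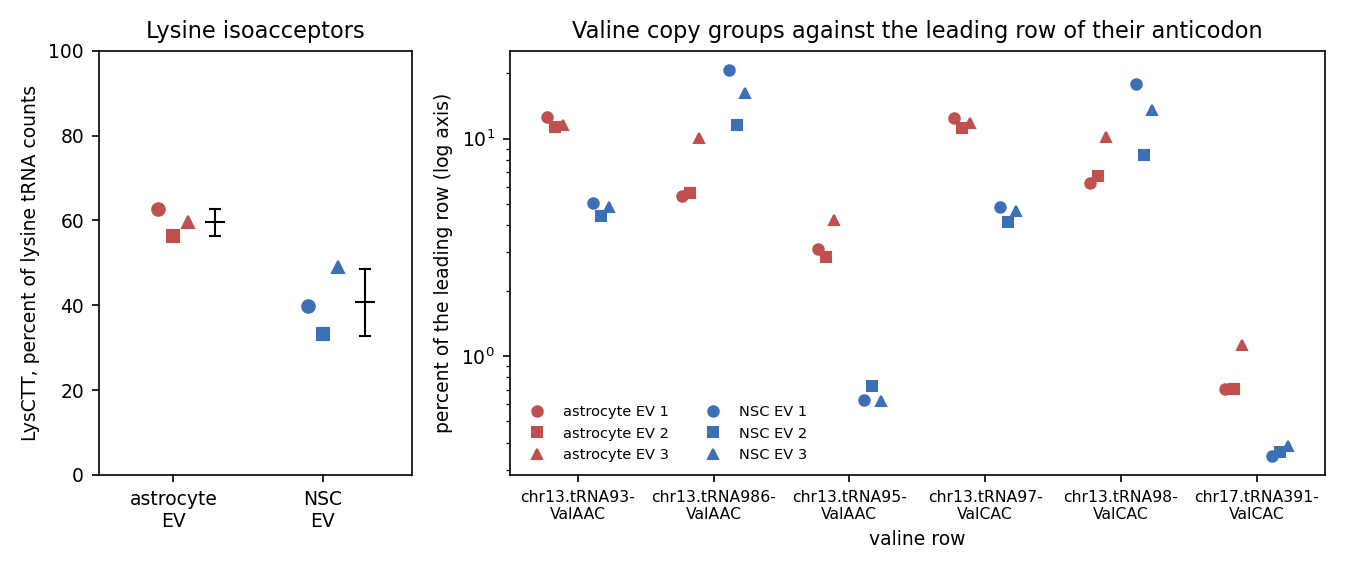
Left, LysCTT as a percentage of lysine tRNA counts in each library (points), with the mean ± SD of 3 libraries (bars). Right, the count of 6 valine rows as a percentage of the leading row of their anticodon (log axis), where chr13.tRNA95-ValAAC ran from 2.87% to 4.24% in astrocyte EVs, against 0.62% to 0.73% in NSC EVs.

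Another 3 single ValCAC rows passed the test and did not overlap between the EV types, again named after their values were seen. The row chr17.tRNA391-ValCAC had 170, 78.9 and 41.8 CPM in astrocyte EVs and 10.7, 10.5 and 15.2 CPM in NSC EVs, a log2 difference of 2.998 (adjusted p = 0.0215 by edgeR). The row chr6.tRNA10-ValCAC had 56.6, 28.8 and 17.4 CPM against 8.80, 7.09 and 9.92 CPM, a log2 difference of 1.99 (adjusted p = 0.0365 by edgeR). The row chr3.tRNA928-ValCAC had 2.85, 1.58 and 1.45 CPM against 0.49, 0.45 and 0.49 CPM, a log2 difference of 2.03 (adjusted p = 0.0234 by edgeR). All 3 calls were lost with the replicate block (0.0587, 0.0867 and 0.0555), and those of chr6.tRNA10-ValCAC and chr3.tRNA928-ValCAC without TMM (0.173 and 0.150).

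The rarer valine anticodons did not pass. The leading ValTAC row, chr19.tRNA109-ValTAC on chromosome 19 at 12011931 to 12012003, had 27.1, 19.5 and 10.1 CPM in astrocyte EVs and 13.1, 6.14 and 13.5 CPM in NSC EVs, which overlap. Its log2 fold change came to 0.79 ± 0.46 (SE, with an edgeR adjusted p = 0.290). The single ValGAC row held 0 counts in 5 libraries and 3 in NSC EV 1, and was not tested. Over all valine groups, 6 of 13 tested were higher and 0 lower, beside 5.54% and 4.24% of all rows tested. The 6 include both chr13.tRNA97-ValCAC and chr13.tRNA93-ValAAC, which cannot be told apart and may count the same reads. The log2 fold changes of the 13 groups ran from -1.08 to 4.30, with a median of 1.99.

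Aspartate has the single anticodon GTC, and 13 of its 16 rows, all copies in its 2 leading groups, lay higher in every astrocyte EV library than in any NSC EV library (17.2% of all rows did). By groups of copies these were 2 of 5. The leading group has 6 copies, represented by chr13.tRNA84-AspGTC on the plus strand of chromosome 13 at 21911313 to 21911384. It had 586, 388 and 92.2 CPM in astrocyte EVs and 53.4, 29.9 and 78.6 CPM in NSC EVs, so that astrocyte EV 3 lay just above the NSC EVs. The log2 fold change came to 2.72 ± 0.70 (SE, with an edgeR adjusted p = 0.0469). It was 2.13 without astrocyte EV 1 and 1.94 without TMM. The call was lost with the replicate block (0.136), when the 6 copies were summed (0.0537), and without any 1 library other than astrocyte EV 3 (0.0909 to 0.128, all by edgeR).

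The second group, chr10.tRNA861-AspGTC with 7 copies, chr13.tRNA991-AspGTC printed above among them, had 528, 353 and 80.9 CPM in astrocyte EVs and 53.1, 29.8 and 77.5 CPM in NSC EVs. Its counts were 87.7% to 91.1% of the leading group in astrocyte EVs, against 98.6% to 99.9% in NSC EVs, so these groups are hardly separate measurements. Its log2 fold change came to 2.58 ± 0.70 (SE, with an edgeR adjusted p = 0.0529), just on the other side of the threshold. A single row, chr2.tRNA511-AspGTC, went the other way, with 9.27, 6.91 and 2.98 CPM in astrocyte EVs and 19.7, 10.4 and 10.7 CPM in NSC EVs. The groups did not overlap, and its log2 fold change of -1.09 (SE 0.48), the smallest of the 37 groups, did not pass (adjusted p = 0.169 by edgeR). Among tRNA rows alone it was called lower, at a log2 fold change of -1.68 (adjusted p = 0.0101 by edgeR). This row lies on chromosome 2 at 114103367 to 114103438 on the strand opposite to the gene Aqr, which encodes an RNA helicase.

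Few lysine groups passed the test. The leading LysCTT group has 7 copies, represented by chr11.tRNA2023-LysCTT on the minus strand of chromosome 11 at 48833883 to 48833955, and had 260, 170 and 49.1 CPM in astrocyte EVs and 40.9, 45.2 and 90.2 CPM in NSC EVs. Astrocyte EV 3 lay within the NSC EV range. The log2 fold change came to 1.44 ± 0.61 (SE, with an edgeR adjusted p = 0.163). The leading LysTTT group, 4 copies represented by chr13.tRNA1012-LysTTT on chromosome 13 at 21168075 to 21168147, had 111, 93.3 and 23.0 CPM in astrocyte EVs and 36.6, 56.6 and 49.4 CPM in NSC EVs, with astrocyte EV 3 the lowest of all. Its log2 fold change came to 0.67 ± 0.55 (SE, with an edgeR adjusted p = 0.455), and was -0.12 without TMM and -0.02 among tRNA rows alone.

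Of the 15 lysine groups tested, 2 were higher and 0 lower, beside 5.54% and 4.24% of all rows tested. Both were LysCTT. They were chr12.tRNA796-LysCTT (2.25, SE 0.56, adjusted p = 0.0425) and chr1.tRNA1276-LysCTT (2.55, SE 0.63, adjusted p = 0.0435), on the log2 scale by edgeR, both named after their values were seen. Both calls were lost without TMM (0.116 and 0.112), with the replicate block (0.119 and 0.0530) and without any 1 library other than astrocyte EV 3 (0.0675 to 0.125). The first had 107, 70.2 and 21.1 CPM in astrocyte EVs and 12.5, 13.5 and 15.6 CPM in NSC EVs. The second rests on 78, 41 and 90 counts against 14, 13 and 4, and lies in the span of Cdh19, a cadherin gene. As for the balance of isoacceptors, LysCTT made up 62.7%, 56.3% and 59.6% of lysine counts in astrocyte EVs and 39.8%, 33.2% and 49.0% in NSC EVs. The groups did not overlap, at 59.5 ± 3.2% and 40.7 ± 8.0% (SD, n = 3). With 3 libraries against 3 the exact two-sided permutation test cannot go below 0.1, which is the p it gave (0.133 after Benjamini-Hochberg adjustment over 8 anticodons). A lack of overlap was common on this measure. Of the 8 anticodons compared within their amino acid, only ValTAC and ValGAC overlapped, and the others had the same p. The level of this share depends on how copies were grouped: it was 43.6% and 27.2% with a limit of 1%, and 72.4% and 53.9% with a limit of 20%, without overlap in either.

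**Figure D3:**
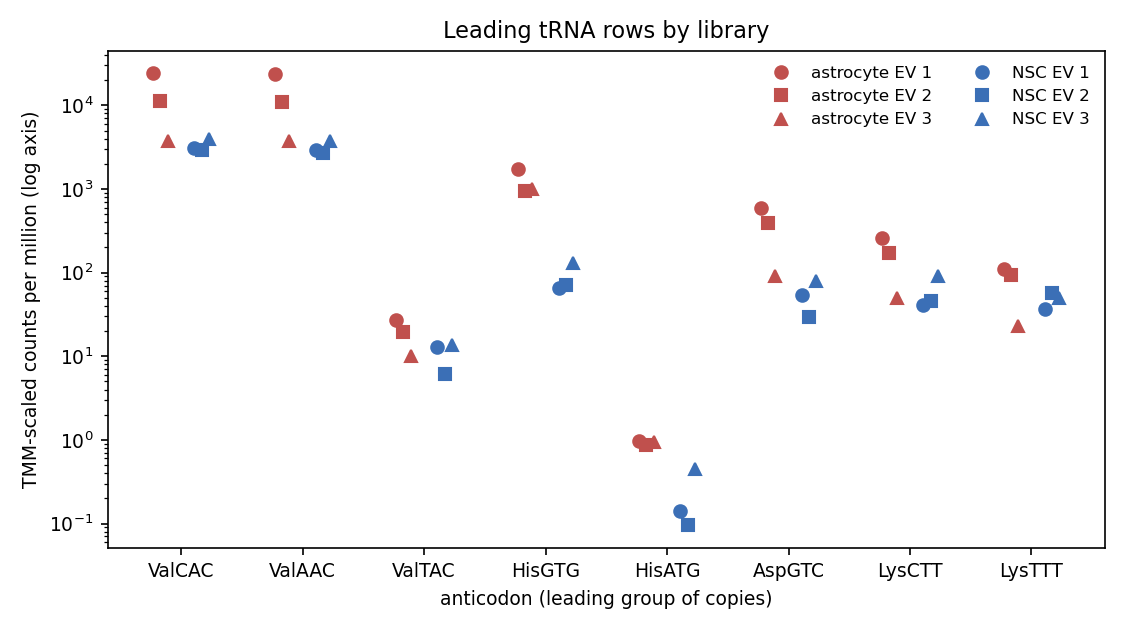
TMM-scaled CPM (log axis) of the row that stands for the leading group of 8 anticodons, with astrocyte EV libraries in red and NSC EV libraries in blue. The red and blue points of HisGTG, HisATG and AspGTC do not overlap, and those of ValCAC, ValAAC, ValTAC, LysCTT and LysTTT do.

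Shares within tRNA counts do not depend on the library size, and none passed its test. With 1 row per group of copies, histidine made up 0.894%, 0.992% and 1.99% of tRNA counts in astrocyte EVs and 0.148%, 0.260% and 0.261% in NSC EVs, a ratio of means of 5.80 with no overlap. The exact two-sided permutation p was 0.1, the smallest these 6 libraries allow, and 0.2 after Benjamini-Hochberg adjustment over 22 kinds of tRNA. Such a separation was common among the 22 kinds. The shares of alanine, cysteine, glutamine, glycine, methionine, proline, serine, threonine, tryptophan and tyrosine tRNA did not overlap either, at the same p. Valine made up 28.8%, 26.9% and 17.8% in astrocyte EVs and 14.8%, 21.1% and 16.8% in NSC EVs. The valine ranges overlapped (24.5 ± 5.8% and 17.6 ± 3.2%, SD, n = 3, exact permutation p = 0.2). Since the leading ValAAC and ValCAC rows were nearly equal, this share may count the same reads under both.

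Aspartate made up 0.697%, 0.974% and 0.437% of tRNA counts in astrocyte EVs and 0.414%, 0.433% and 0.499% in NSC EVs. Lysine made up 0.301%, 0.449% and 0.244% in astrocyte EVs and 0.290%, 0.642% and 0.404% in NSC EVs. Both overlapped between the EV types, with an exact permutation p of 0.2 for aspartate and 0.5 for lysine. With all tRNA rows summed, aspartate did not overlap, at 0.706%, 0.928% and 0.400% in astrocyte EVs and 0.279%, 0.303% and 0.378% in NSC EVs (ratio 2.12, exact permutation p = 0.1). As a share of all counts rather than of tRNA counts, valine did not overlap either (ratio 2.23, exact permutation p = 0.1). On both measures other kinds of tRNA did not overlap as well, among them cysteine, glutamine, histidine, methionine, proline and tryptophan. The 4 amino acids together took 20.5% to 30.7% of tRNA counts in astrocyte EVs, against 15.7% to 22.5% in NSC EVs. Most of the rest was glycine tRNA, with means of 46.3% and 55.1%, and glutamate tRNA, with 25.2% and 22.5%. These levels depend on how near-equal rows were counted. With such rows taken once across anticodons, glycine means were 38.6% in astrocyte EVs and 45.4% in NSC EVs, and glutamate means 36.6% and 33.5%. Valine means were then 19.5% and 15.2%.

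**Figure D4:**
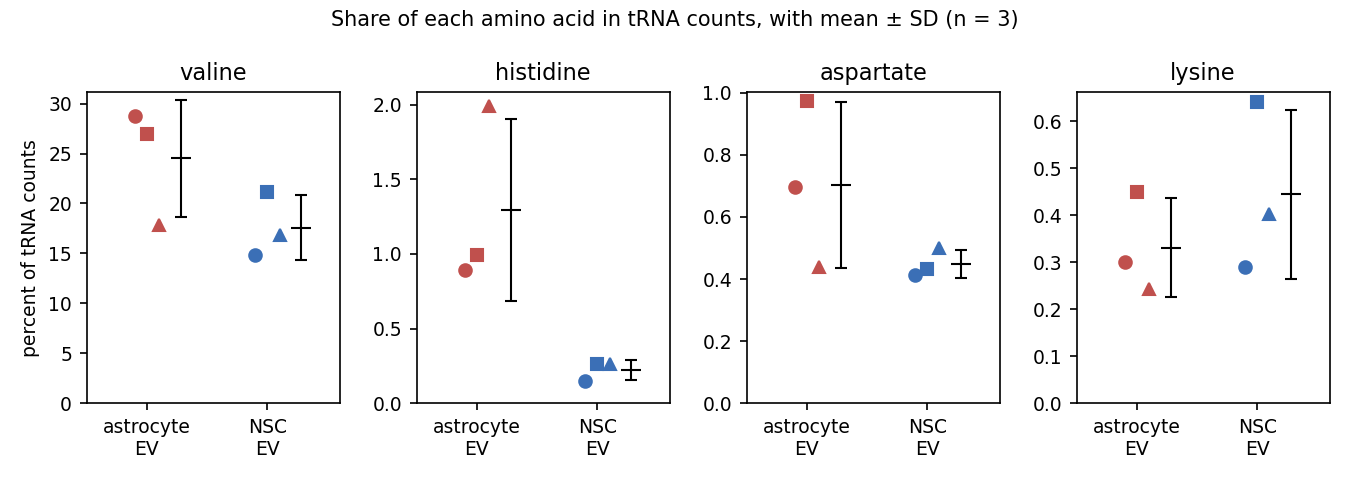
Share of valine, histidine, aspartate and lysine tRNA in the tRNA counts of each library (points, percent, y axes from 0), with mean ± SD of 3 libraries (bars). Histidine shares in astrocyte EVs (0.894% to 1.99%) all lie above those in NSC EVs (0.148% to 0.261%), and the other 3 overlap.

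Representatives of 6 groups overlap a row of the table for another gene. For 3 of these, the row on the strand of the tRNA held somewhat more counts than the tRNA itself. They were chr11.tRNA2023-LysCTT, opposite to the ubiquitin ligase gene Trim7 (2331 to 10864 counts per library for the tRNA and 3226 to 11670 for that strand), chr7.tRNA1280-LysTTT, opposite to Rinl (494 to 928 and 517 to 982), and chr2.tRNA511-AspGTC, opposite to Aqr (387 to 1126 and 460 to 1261). On the other strand the rows of Trim7 and Rinl held 62 to 299 and 38 to 243 counts, and that of Aqr 770 to 7175. At BC107364, Cdh19 and 1700007L15Rik the overlapping rows did not follow the tRNA in this way. For example, chr1.tRNA1276-LysCTT held 4 to 90 counts, the Cdh19 row on its strand 94 to 335, and the row of the opposite strand 2019 to 14925. Member groups with under 1000 counts over the 6 libraries together were not compared with rows of other types. For the rest, no row other than a tRNA row came within 5% of the representative in all 6 libraries.

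Markers of other cells also differed between the EV types. All 5 miRNA rows known from red blood cells were higher in astrocyte EVs by edgeR, where 5.54% of all rows tested were higher. They include the red cell miRNA miR-451a, at 77, 160 and 152 counts against 0, 0 and 0. Summed, they made up 94.3, 222 and 579 CPM without TMM in astrocyte EVs 1 to 3, against 7.47 to 20.4 in NSC EVs. Most of these counts lay in miR-486a-5p (3980, 7893 and 32125 in astrocyte EVs) and miR-486b-5p (3981, 7874 and 32053). These 2 rows were near-equal and may count the same reads. Mesenchymal miRNAs, 2 of 3 tested higher, made up 224, 268 and 18.8 CPM without TMM in astrocyte EVs, against 2.75 to 11.6 in NSC EVs. Astrocyte EV 3 was thus highest for the red cell sum and lowest of its group for the mesenchymal sum. The counts of miR-451a, however, were highest in astrocyte EV 2. Astrocyte EV 3 was also highest for the histidine share (1.99%) and lowest of its group for the valine share (17.8%). Of the miRNAs of white blood cells and microglia, 1 of 1 tested was higher, and the neuronal miRNA miR-124-3p was at 0 counts in astrocyte EVs and at 46, 157 and 41 in NSC EVs. The study names an exosome-free medium for an earlier split of the astrocytes, and medium with serum for the last plating. Whether these miRNAs came from cells in the cultures or from the serum in the medium was not tested. The part of either source in the tRNA differences was not tested.

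Of 25 genes of tRNA biology tested, 2 were higher and 2 lower by edgeR, a share close to that over all rows (5.54% and 4.24%). The higher ones were Vars, the valine tRNA synthetase (368, 606 and 941 counts in astrocyte EVs and 101, 125 and 163 in NSC EVs), and Hars2, the mitochondrial histidine tRNA synthetase (64, 81 and 686 against 11, 5 and 17). The lower ones were Elac2, which trims the 3′ end of tRNA precursors (60, 148 and 151 against 418, 275 and 258), and Ctu2, which acts in thiolation of the wobble uridine (35, 65 and 72 against 190, 33539 and 407, with almost all counts in NSC EV 2). None of the 3 genes of tRNA cleavage listed, Ang, Rnh1 and Dicer1, passed the test, with adjusted p of 0.108 to 0.868 by edgeR.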

How the data were processed

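Small RNA was sequenced from EVs, with 3 libraries per EV type. The authors deposited whole-number counts per annotated row, not normalized. The totals per library in the report are sums over rows in which a read can count more than once, so the depth in reads is not known from the table. Per the submitters' processing notes the build was mm10 and the tools were FastQC, cutadapt, bedtools, SAMtools, Bowtie2, Bowtie and DESeq. The counting of reads that match several copies is not given in the sources used. The 2 tables of the authors' comparison (group means, fold changes and p-values) were not used.

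The 788 miRNA hairpin rows, which repeat reads of mature rows, were left out. The other 61161 were tested in edgeR 4.0.16 under R 4.3.3, after its default filter on low counts and TMM scaling, by the quasi-likelihood test for EV type without covariates. P-values were adjusted over all rows tested (Benjamini-Hochberg), and rows below 0.05 were called. The code was checked on simulated counts. Shares were compared by exact two-sided permutation tests in Python 3.11.15 with scipy 1.17.1. Alternatives were DESeq2 1.42.0, other scalings and filters, other limits for grouping copies, a replicate block and each library left out. The members and lists were chosen with earlier results of these data known.

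The named rows were the representative of the leading group of each anticodon, the second group of each amino acid, and the groups of largest and smallest log2 fold change; others are marked. Same-numbered libraries did not deviate together (correlations -0.118 to -0.004), so the numbers were not taken to pair them. No library was a copy of another (between replicates, chi-square was at least 212 per degree of freedom over tRNA groups, a test that covers counting error only).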

Additional observations from a re-analysis of the deposited data

How the results depend on the processing

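Across all rows, 4040 passed the edgeR test on 6 libraries, 7890 with DESeq2, 1245 with the replicate block, 70 of the 227 rows tested when tRNA rows were fitted alone, and 0 to 4009 with 1 library left out. Of the member rows, 26 were higher on 6 libraries, 42 with DESeq2, 10 with the replicate block and 0 to 35 with 1 library left out, and 0 were lower in any of these fits. Of the member groups, 11 were higher on 6 libraries, 7 without TMM, 3 with the replicate block and 0 to 14 with 1 library left out. None was lower except in the fit of tRNA rows alone, which called 2 lower, chr2.tRNA511-AspGTC and chr7.tRNA1280-LysTTT, and 14 higher. The libraries without which no member passed were astrocyte EV 1, astrocyte EV 2 and NSC EV 3. Without TMM the median of all rows moved from -0.04 to -0.54 and that of the member rows from 1.98 to 1.12. The sign turned for chr13.tRNA1012-LysTTT without TMM (-0.12) and among tRNA rows alone (-0.023), from 0.67, and for chr13.tRNA986-ValAAC without TMM (-0.16), among tRNA rows alone (-0.0033) and without astrocyte EV 1 (-0.057, within -0.057 to 0.93 with 1 library left out), from 0.59. For the lysine share, the difference of -0.114 percentage points of tRNA counts became 0.00477 points of all counts. With near-equal valine rows taken once across anticodons, an alternative added after the data were seen, the ValAAC share difference turned from 0.80 to -3.89 points and that of ValCAC from -0.67 to 4.09. Limits of 1% or 20% for grouping copies left the number of groups called at 11, but moved the aspartate share difference from 0.254 points to 0.392 and 0.105, and that of lysine to -0.213 and -0.0662. Very low rows, such as ValGAC with 3 counts in all, could not be compared at this depth, and the cause of the other shifts was not tested.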
